A study of Danio rerio with 6 samples.

Results

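The genes described here are hormone genes of the pituitary and the neuropeptide gene cart4, measured in cells sorted from zebrafish (Danio rerio) heads. They were chosen by name: gh1, prl, pomca, cga, smtlb, pou1f1 and cart4. Of these 7 names, 6 were rows of the table of 11218 genes. pou1f1 was not analysed here, because no row used here carries that name. The names were drawn up with the values of these 6 libraries known. Their levels are therefore given as a description with no test, and the sizes of their differences support nothing beyond themselves.

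The study set scarb2a mutants against their wild type siblings at 48 hours post fertilization. The product of scarb2a is the fish counterpart of LIMP-2, which sits in the membrane of lysosomes; the labels do not name the mutant allele. Both genotypes carried the reporter TgBAC(scar2ba:KalTA4; UAS-mKate2), spelled as in the labels, in which scarb2a regulatory sequence drives a red fluorescent protein. Each library came from 5000 live reporter-positive cells out of a pool of 50 heads. There were 3 libraries of wild type siblings, numbered 1, 3 and 4, and 3 of mutants, numbered 1, 2 and 3, all called biological replicates in the labels. Values are normalized counts of tags from the 3′ ends of transcripts, as deposited and not scaled by gene length, and 1 count was worth between 0.803 and 1.15 of these units. The counts behind them came to between 1560238 and 2086990 per library. The mutated gene scarb2a was listed at 3.5, 2.2 and 1.6 normalized counts in the wild type libraries and at 1.0, 5.9 and 4.5 in the mutant ones, too few to check the labels or the sort.

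The anterior pituitary is built from endocrine cell types that each make their own hormone. Somatotropes make growth hormone from gh1, lactotropes prolactin from prl, and corticotropes and melanotropes the precursor proopiomelanocortin from pomca. cga encodes the alpha subunit shared by thyrotropin and the gonadotropins, and smtlb encodes a somatolactin, a hormone of fish related to growth hormone and prolactin. The pituitary factor POU1F1 is needed in zebrafish for somatotropes, lactotropes and thyrotropes. cart4 belongs to the family of cocaine- and amphetamine-regulated transcripts, which encode peptides of the brain and hypothalamus that take part in the control of feeding in vertebrates.

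The hormone genes did not share a pattern over the libraries. gh1 was abundant in all 6 and about 2.05 times higher in the mutants, while prl and smtlb were carried by mutant 3 alone. pomca was at 0 in wild type 1 and low in mutant 1, with similar values in the other 4 libraries, and cga was seen in wild type 4 and mutant 1. cart4 was near the detection limit in wild type and higher in every mutant library. In bulk libraries, fewer cells of a type and less RNA per cell cannot be told apart.

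**Figure D1:**
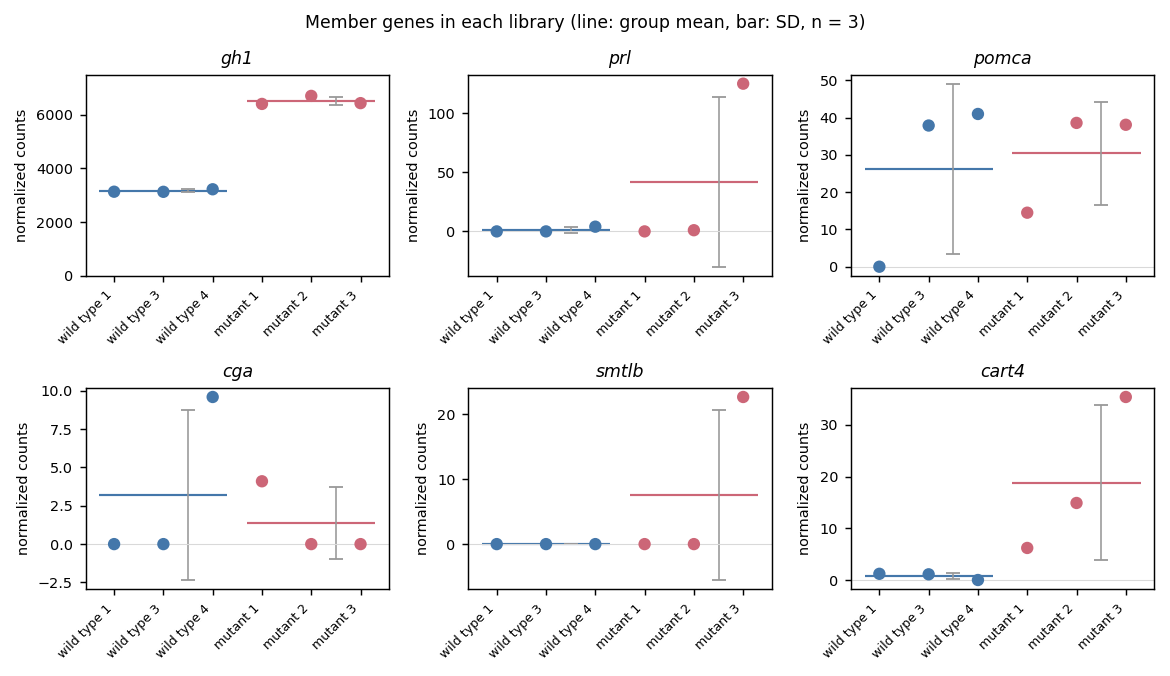
Normalized counts of the 6 member genes in each library (points, blue for wild type and red for mutant), with the group mean as a line and the SD as a bar. Only gh1 and cart4 have every mutant library above every wild type library, and the prl and smtlb means of the mutants come from mutant 3, at 125.1 and 22.7.

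gh1 had 3134.8, 3130.9 and 3225.8 normalized counts in wild type 1, 3 and 4. In mutant 1, 2 and 3 it had 6405.1, 6704.4 and 6434.7. The groups lay far apart, and libraries of 1 genotype were close together. The means were 3164 ± 53.7 and 6515 ± 165 (SD, n = 3), a difference of 1.04 on the log2(value + 1) scale, mutant minus wild type. The ratio of summed counts was 2.05, with a 95% exact binomial interval from 2.00 to 2.105 that covers counting error only. gh1 took 0.174, 0.181 and 0.192% of all counts in the wild type libraries and 0.337, 0.352 and 0.353% in the mutant ones. The 95% exact (Clopper-Pearson) intervals of these shares reached from 0.168 to 0.198% in wild type and from 0.328 to 0.361% in mutants. After scaling all libraries to equal totals, the difference was 0.93.

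The relative spread of gh1 between libraries was small. Its coefficient of variation was 1.70% in wild type, where counting alone gives 1.77%, and 2.53% in mutants, where counting gives 1.22%. The high and steady level of gh1 stood beside hormone genes of the same gland that were at 0 in several libraries. In wild type 1, where gh1 had 2716 counts, prl, pomca, cga, smtlb and tshba, which encodes the beta subunit of thyrotropin, all had none. The level of gh1 therefore did not follow that of the other pituitary hormones, and no cell type is named from its row. Which transcript sequence its tags came from was not examined, and whether any were tags of the reporter construct was not tested, so the gh1 values and their difference are those of the row and may not be those of the endogenous gene alone. In the gene order of the reference assembly, which differs from the build of the table, the nearest coding genes on either side with a row were myl4 and arhgap27l. Both were low, myl4 with at most 13.7 and arhgap27l with at most 9.3 normalized counts in any library.

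prl was listed at 0, 0 and 4.0 normalized counts in wild type 1, 3 and 4. It was at 0, 1.0 and 125.1 in mutant 1, 2 and 3. Mutant 3 stood apart with 138 counts, and the other mutants were no higher than wild type. Summed over the groups there were 5 counts in wild type and 139 in mutants, of which 1 lay outside mutant 3. The mean difference of 1.89 on the log2(value + 1) scale became -0.27 without mutant 3. A count of 0, as in wild type 1, allows a share of up to 0.000192% of the library, taking 3 counts as the limit.

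smtlb was at 0 in wild type 1, 3 and 4 and in mutant 1 and 2. It was at 22.7 normalized counts, or 25 counts, in mutant 3. Against a limit of 3 counts over the wild type group, the ratio of mutant to wild type was 8.22. The mutant counts entered it without an interval for counting error. Mutant 3 alone provides this ratio, since the other mutants held 0 counts. prl and smtlb were thus high in the same library. gh1 had 6434.7 normalized counts in mutant 3, between the values of mutant 1 and mutant 2.

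The whole table was then searched for such rows. The limits were chosen after the values of the members had been seen: at least 20 counts in 1 library and at most 6 in the other 5 together. In all, 9 of 11218 rows met them, or 0.0802%, and 4 of these were high in mutant 3. These 4 were prl, smtlb, si:dkey-22i16.3 and si:ch211-133n4.6. prl and smtlb met limits set with their values known, and the share is taken over all rows, sparse or not. It therefore does not measure how rare such rows are. si:dkey-22i16.3 was at 34.5 normalized counts in mutant 3 and at most 3.1 elsewhere. si:ch211-133n4.6 was at 18.1 in mutant 3 and at most 4.6 elsewhere. The other rows were the embryonic globin genes hbbe1.1, hbbe3_1 and hbbe2_1 in mutant 1, the cardiac myosin light chain gene cmlc1 in wild type 4, and the relaxin gene rln3a in wild type 1.

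**Figure D2:**
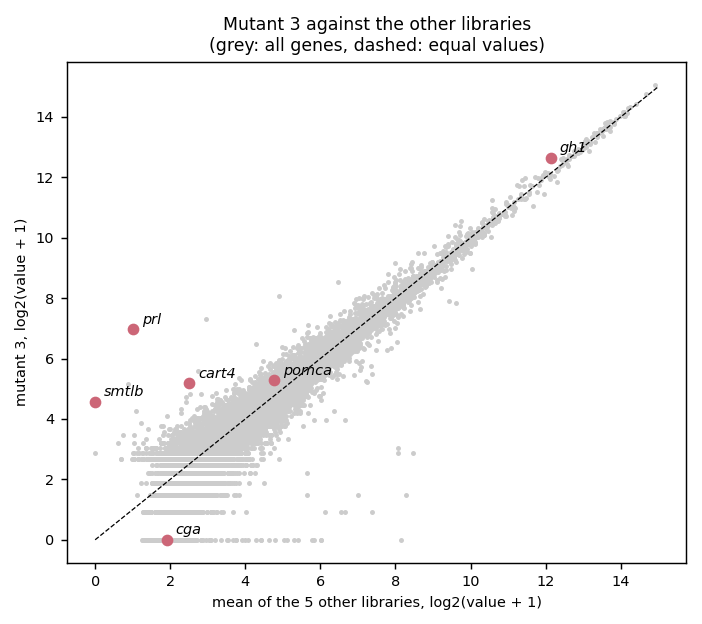
Each gene's value in mutant 3 against its mean over the other 5 libraries, both as log2(value + 1), with all genes in grey, the members in red and equal values on the dashed line. prl and smtlb lie far above the line, while gh1, which is higher in all mutants, and pomca lie close to it. cart4, at 35.4 normalized counts in mutant 3, also lies above the line, and cga, at 0 there, lies below it.

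pomca was listed at 0, 37.9 and 41.0 normalized counts in wild type 1, 3 and 4. It was at 14.5, 38.6 and 38.1 in mutant 1, 2 and 3. The groups overlapped, and wild type 1 and mutant 1 were the low libraries. The means were 26.3 ± 22.8 and 30.4 ± 13.8 (SD, n = 3), from 86 and 95 counts, with a ratio of summed counts of 1.09 (95% exact binomial interval 0.805 to 1.48, counting error only). The difference of 1.29 on the log2(value + 1) scale rested on wild type 1 and was -0.49 without it. Only 2 rows of the table were at 0 in 1 library with at least 10 counts in each of the other 5, limits chosen after the values had been seen. These were pomca and marveld2a, both at 0 in wild type 1. marveld2a was at 10.4 to 21.8 normalized counts elsewhere.

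cga was at 0, 0 and 9.6 normalized counts in wild type 1, 3 and 4 and at 4.1, 0 and 0 in mutant 1, 2 and 3. Only 12 and 4 counts stood behind the groups, and 4 of the 6 libraries had none. The ratio of summed counts, mutant over wild type, was 0.329 with a 95% exact binomial interval from 0.0772 to 1.08 that covers counting error only. All wild type counts came from 1 library and all mutant counts from another, so the ratio says little about the genotypes. tshba, whose product pairs with that of cga in thyrotropin, was seen in wild type 4 alone, at 7.2 normalized counts, the library with the highest cga value.

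cart4 was at 1.2, 1.1 and 0 normalized counts in wild type 1, 3 and 4. It was at 6.2, 14.9 and 35.4 in mutant 1, 2 and 3. The groups did not overlap, and the mutants differed widely among themselves. The means were 0.767 ± 0.666 and 18.8 ± 14.99 (SD, n = 3), a difference of 3.27 on the log2(value + 1) scale. With 2 counts in wild type and 60 in mutants, the ratio of summed counts was 29.6, with a 95% exact binomial interval from 7.84 to 249.8 that covers counting error only. Leaving out 1 library at a time gave log2 differences from 2.68 to 3.85, and a pseudocount of 5 gave 1.86. Mutant 3, which held the prl and smtlb counts, also held 39 of the 60 counts of cart4, and 21 lay in the other mutants.

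Of the 6 rows, gh1 and cart4 had every mutant library above every wild type library, as did 17.9% of the 9647 genes tested. The names had been chosen with this contrast known, so nothing is read from that count. 4 of the 6 rows, gh1, prl, pomca and cart4, passed the limit of a mean of 5 normalized counts used for testing, and cga and smtlb did not. A 0 in at least 1 library was found in 5 of the 6 rows and in 5.56% of all rows, a description of rows chosen for their values.

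The variance within a genotype, divided by the variance that counting alone gives, had a median of 1.07 over the genes tested, and the 95th percentile was 4.12. It was 62.7 for prl, 11.7 for pomca, 6.38 for cart4 and 6.50 for cga. For smtlb it was computed as 11.2, which is too low. Its wild type libraries, without counts, add nothing but are counted in the divisor. For gh1 it was 2.61, more than in 87.6% of the genes tested. That rank is over genes of all levels, and gh1 was not compared with genes of like level. These are descriptions of members chosen with their values known.

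**Figure D3:**
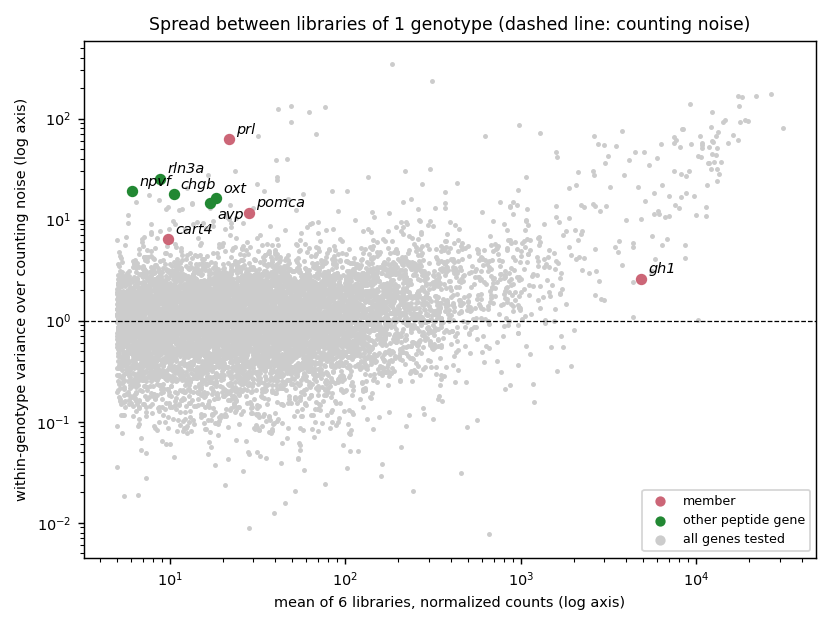
Within-genotype variance over counting noise against mean level, both on log axes, for all genes tested (grey), the members that passed the filter (red) and other peptide genes chosen for display after their values were seen (green), with counting noise at the dashed line. prl, pomca and cart4 lie at 62.7, 11.7 and 6.38, and gh1 at 2.61.

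Genes whose level followed the members most closely were named by Pearson's r over the 6 libraries on the log2(value + 1) scale, among 9643 genes. With so few libraries and so many genes, high values of r arise readily, and they are given as a description. Closest to the mean standardized profile of the 6 rows were calm3b, nenf, jdp2b, zgc:113054 and sh3pxd2b, with r from 0.988 to 0.996. calm3b, a calmodulin gene, was at 65.8, 84.4 and 110.8 in the wild type libraries and at 116.9, 111.9 and 188.6 in the mutant ones. Closest to cart4 alone were pmelb, prrg4, klf12a_1, zgc:63831 and rab13, with r from 0.991 to 1.00. pmelb, a gene of pigment granules, was at 49.6, 48.7 and 39.4 in wild type and at 68.3, 84.2 and 102.5 in mutants. Among the members themselves the highest r were 0.942 for prl and smtlb, which share the high value of mutant 3, and 0.900 for gh1 and cart4, which share the order of the genotypes. The other pairs lay between -0.461, for cga and cart4, and 0.696, for smtlb and cart4.

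Other genes of the pituitary and its control were then examined in 6 lists put together by known role, without the members. Earlier results of these data were known when the lists were drawn up. The lists held 199 symbols, of which 89 had a row and 73 passed the filter on low values. The test was limma on log2(value + 1) over all 9647 genes, with Benjamini-Hochberg adjustment and a threshold of 0.05. In it 28 of the 73 passed, 11 higher and 17 lower in the mutant, while 45 did not. Over all genes tested, 10.9% were higher and 8.5% lower, and with equal totals 795 genes were higher and 1306 lower in place of 1053 and 820. With equal totals 9 genes of the lists were higher and 21 lower. The median difference over the 73 genes was -0.06, beside -0.01 over all genes tested.

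The remaining hormone genes were sparse, as prl, cga and smtlb were and gh1 was not. Of 14 symbols 3 had a row, and each of these was at 0 in at least 1 library. oxt, encoding the oxytocin-like peptide of the posterior pituitary, was at 0, 39.0 and 68.3 normalized counts in wild type 1, 3 and 4 and at 0, 0 and 2.7 in mutant 1, 2 and 3. It was lower by 3.18 ± 1.06 (SE) on the log2 scale (limma adjusted p = 0.0405), although wild type 1 had as little as mutant 1 and 2. oxt no longer passed when wild type 3, wild type 4, mutant 1 or mutant 2 was left out (limma adjusted p from 0.101 to 0.269). avp, encoding the vasopressin-like peptide of the posterior pituitary, was at 25.4, 54.1 and 4.8 in wild type and at 0, 8.9 and 9.1 in mutants. It did not pass (difference -2.13 ± 0.759 SE, adjusted p = 0.0558), and the groups overlapped. avp passed when wild type 4, mutant 2 or mutant 3 was left out (limma adjusted p of 0.00832, 0.0282 and 0.0386). It also passed with a pseudocount of 5, without the filter on low values and with equal totals (limma adjusted p of 0.0383, 0.0399 and 0.0463). Over all alternatives its adjusted p ranged from 1.76e-08, in limma with a term for replicate number, to 0.398, in DESeq2. The fit with that term takes its difference only from the libraries numbered 1 and 3, the numbers that both genotypes have.

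The neuropeptide genes of the lists leave out cart4, which is a member. Of 50 symbols 25 had a row and 18 were tested. None was higher, 2 were lower and 16 did not pass, beside 10.9% higher and 8.5% lower over all genes tested. Their median was -0.16. sst1.1, a somatostatin gene, fell from 74.6 ± 24.6 to 35.6 ± 11.5 (SD, n = 3), a difference of -1.04 (limma adjusted p = 0.00286; 0.0862 without a trend, which ends the call). nppc, a natriuretic peptide gene, fell from 18.6 ± 2.95 to 8.5 ± 2.31 (limma adjusted p = 0.0228). nppc no longer passed when wild type 1, wild type 4 or mutant 3 was left out (adjusted p from 0.0594 to 0.0923). Several neuropeptide genes had most of their counts in 1 or 2 libraries, as prl, smtlb and cga did. hcrt, encoding the hypocretin precursor, was at 6.3 normalized counts in mutant 3 and at 0 elsewhere. trh, encoding thyrotropin-releasing hormone, was at 13.6 in mutant 3 and at most 2.4 elsewhere. Chosen after its values were seen, rln3a was at 50.8 in wild type 1, at 2.2 in wild type 3 and at 0 in the other libraries. npvf, chosen in the same way, was at 19.6 in wild type 1, at 17.2 in mutant 3 and at 0 elsewhere. npy, encoding neuropeptide Y, was at 3.5, 8.7 and 4.8 in wild type and at 4.1, 0 and 0.9 in mutants, under the filter. pmchl, a melanin-concentrating hormone gene, and crhb, encoding corticotropin-releasing hormone, had adjusted p values of 0.812 and 0.716 in limma.

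**Figure D4:**
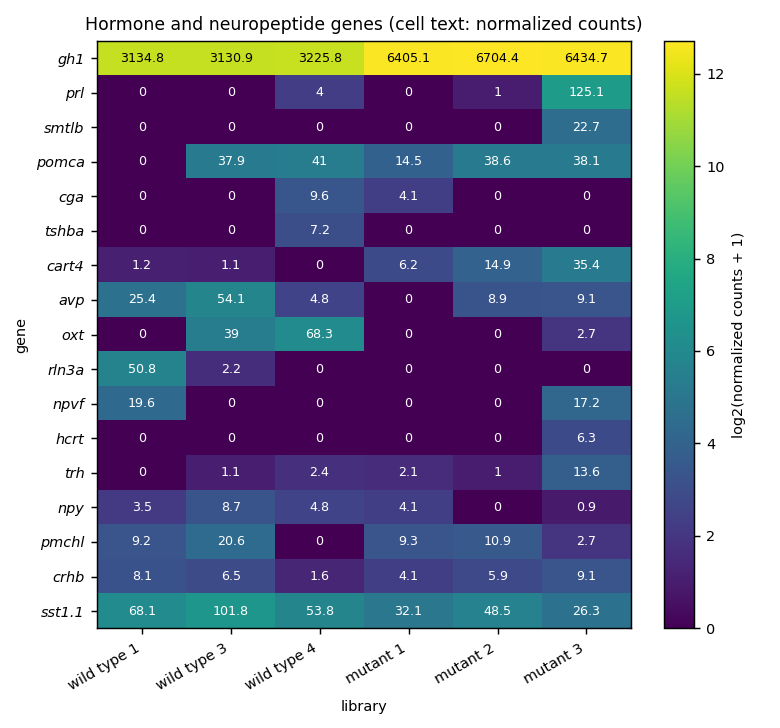
Normalized counts (numbers in the cells) and log2(normalized counts + 1) (colour) of the members with a row and of other hormone and neuropeptide genes in the 6 libraries, with rows for display chosen after their values were seen. gh1 is high in all libraries, while prl, smtlb, tshba, hcrt and rln3a are each carried mainly by 1 library.

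Transcription factors of the pituitary placode and gland changed in both directions. Of 20 rows 18 were tested, 5 rose, 7 fell and 6 did not pass, with a median of -0.17. six1a and six1b, factors of cranial placodes, rose from 25.4 ± 5.57 to 94.9 ± 6.69 and from 45.1 ± 3.00 to 117.8 ± 17.2 normalized counts (SD, n = 3). pitx1, a homeobox gene of the early pituitary, and pitx3 rose by 1.29 and 0.75 on the log2 scale. pitx3 no longer passed when wild type 4 was left out (limma adjusted p = 0.0594). lhx4, a LIM homeobox gene needed for pituitary growth in mammals, fell from 168.7 ± 10.1 to 56.6 ± 4.33 (adjusted p = 2.40e-08 in limma). rx3, a factor of the eye field and hypothalamus, fell from 161.5 ± 19.8 to 48.7 ± 7.38, six6b by 1.01 and isl1 by 0.78 on the log2 scale. In the same libraries, 14 lens markers summed to between 2732 and 3535 normalized counts in wild type and between 25.0 and 82.7 in mutants, and 11 of the 11 tested fell. The 15 mesenchyme markers summed to between 1963 and 2431 in wild type and between 4899 and 5670 in mutants, and 14 of the 15 rose. The 13 epidermis markers summed to between 4090 and 5910 and between 8333 and 8611, and 10 of the 11 tested rose. The 16 olfactory placode markers summed to between 1712 and 2014 in wild type and between 1490 and 1634 in mutants. Of the 14 tested, 3 rose, 5 fell and 6 did not pass. The 14 radial glia markers summed to between 5077 and 5789 in wild type and between 4140 and 4397 in mutants. Of the 13 tested, 2 rose, 7 fell and 4 did not pass. Several of the pituitary factors are also known from eye, facial mesenchyme and other placodes. The part of those tissues in the values was not tested.

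Factors of the hypothalamus, which governs the pituitary, also went both ways. Of 16 genes tested, 3 rose, 5 fell and 8 did not pass, with a median of 0.21. otpb, a homeobox gene of neuroendocrine neurons including those that make oxt and avp, fell from 503.2 ± 51.7 to 261.9 ± 24.4 (SD, n = 3; limma adjusted p = 7.41e-07). Its paralogue otpa had a difference of -0.32, and no longer passed when mutant 1 or mutant 3 was left out (adjusted p of 0.0501 and 0.0614). tbx3a fell by 0.79 and fezf2 by 1.00 on the log2 scale, and fezf2 no longer passed when wild type 3 was left out (limma adjusted p = 0.0675). dlx5a and dlx2a, which forebrain and facial mesenchyme share, rose by 0.88 and 0.73. dlx1a rose by 0.63, and no longer passed when wild type 4, mutant 1 or mutant 3 was left out (limma adjusted p from 0.0531 to 0.119), with a difference of 0.35 in the absence of wild type 4. nkx2.1, nkx2.4a and nkx2.4b, which mark the ventral hypothalamus, had differences of 0.51, 0.29 and 0.71 and did not pass (adjusted p = 0.0721, 0.401 and 0.186 in limma). The 19 neuron markers summed to between 12421 and 13035 normalized counts in wild type and between 10967 and 11400 in mutants, and 7 of the 18 tested fell.

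Genes that process and store peptide hormones went both ways. Of 33 symbols 15 had a row and 14 were tested. Of these 14, 2 rose, 2 fell and 10 did not pass, with a median of -0.05. Over all genes tested, 19.4% passed in either direction. cpe, the carboxypeptidase that trims hormone precursors, fell from 177.4 ± 19.7 to 122.6 ± 7.42 (SD, n = 3; limma adjusted p = 0.00252), a call that limma without a trend did not make (adjusted p = 0.0635). vgf, a granule protein gene of neurons, fell from 31.5 ± 3.76 to 17.6 ± 1.17 (limma adjusted p = 0.0164). vgf no longer passed when wild type 1, wild type 3 or mutant 3 was left out (adjusted p from 0.0511 to 0.0645). ptprna rose by 0.42 and qpctla by 0.70 on the log2 scale. ptprna no longer passed when wild type 3, wild type 4, mutant 1 or mutant 2 was left out (limma adjusted p from 0.0779 to 0.119). qpctla no longer passed when any wild type library or mutant 2 was left out (limma adjusted p from 0.0555 to 0.255), with a difference of 0.46 in the absence of mutant 2. scg2b, a secretogranin gene, was at 82.0 ± 5.001 and 83.3 ± 4.04, and pam, which amidates peptides, at 68.2 ± 14.0 and 61.0 ± 5.44. chgb, a granin gene outside the naming rule, was at 41.4 normalized counts in mutant 1 and at most 8.1 elsewhere.

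Of the genes that receive or relay the hormones' signals, 9 of 40 symbols had a row and 5 were tested. cish, which is induced by growth hormone signalling through STAT5 and limits it, rose from 31.0 ± 5.36 to 49.8 ± 4.78 normalized counts (SD, n = 3; limma adjusted p = 0.0148). cish no longer passed when wild type 1 or mutant 3 was left out (limma adjusted p = 0.0612 and 0.0754). The other 4 did not pass. igf2a, encoding an insulin-like growth factor, had a difference of 0.88 (adjusted p = 0.217 in limma), and igf1, igf2b and stat5b lay under the filter, with at most 11.5 normalized counts in any library.

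**Figure D5:**
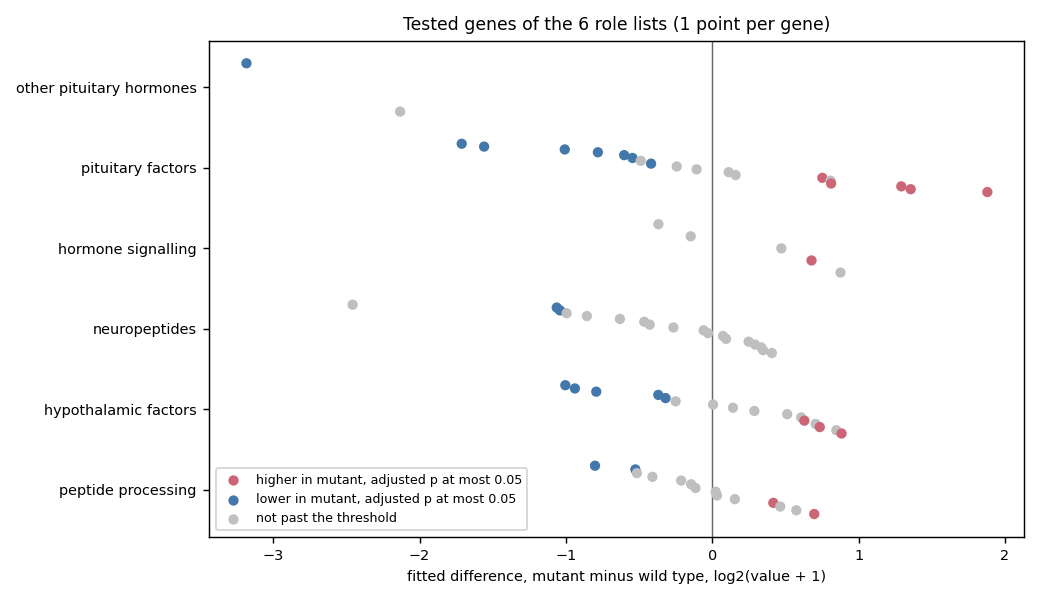
Fitted difference, mutant minus wild type, on the log2(value + 1) scale for each tested gene of the 6 role lists, coloured by whether it passed an adjusted p of 0.05 in limma. Pituitary and hypothalamic factors lie on both sides of 0, with 8 higher and 12 lower. Of the neuropeptide genes 2 are lower and none is higher, while 19.4% of all genes tested passed.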

How the data were processed

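RNA of sorted head cells was sequenced with MARS-seq adapted to bulk samples, a method that counts 3′ ends, per the labels' protocols. The genome build was danRer11, per the submitters' processing notes. The aligner and the counting tool are not given in the sources. The deposited table holds a signal, normalized counts, which behaves as counts over a library factor. Of 67308 deposited values, 99.997% fell on whole multiples of their library's step (tolerance 0.0505). For mutant 2 the step, 0.991, is so close to 1 that low values alone cannot show it. Whether a count is a read or a molecule is not stated, so intervals and limits cover counting error only. No gene had under 6 counts in its highest library, so genes below that level are not analysed here.

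The members and lists were chosen with earlier results of these data known. limma (3.58.1, with trend, genotype as the only term) was run on log2(value + 1) for genes with a mean of at least 5, in R 4.3.3. Named genes were the members, the first 5 rows of each role list, up to 4 called genes per direction and list, and the 5 genes closest in profile to the members and to cart4. A gene that this rule names is not reported here. Alternatives were other pseudocounts, filters and scalings, limma without a trend, edgeR 4.0.16 and DESeq2 1.42.0 on recovered counts, a replicate block, and each library left out. On simulated data for this comparison with 9629 genes tested, 54.2% of 96 genes changed 2-fold and 96.9% of 98 changed 4-fold were recovered, with 9 false calls among 156. In the simulation few genes changed, up or down at equal odds, and the library factors were taken as known. In the real comparison 19.4% of the genes tested were called, so the rate of false calls may not carry over. Libraries of 1 genotype differed by more than sampling noise (chi-square over its degrees of freedom between 1.77 and 2.26), and none was treated as a duplicate. Protein and promoter sequences were not used here.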

Additional observations from a re-analysis of the deposited data

How the results depend on the processing

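Counts of calls changed with the scaling and the test. Over all genes, 820 were lower and 1053 higher; equal totals gave 1306 lower, limma without a trend 429 and 578, and DESeq2 387 and 600. In the role lists, 17 were lower and 11 higher; limma without a trend gave 8 and 5, and DESeq2 6 higher. Leaving out 1 library gave 586 to 661 lower and 778 to 983 higher over all genes, and 14 to 17 lower and 7 to 12 higher in the lists, with 7 higher without wild type replicate 4. The replicate numbers 1 and 3 occur in both genotypes, but same-numbered libraries did not deviate together (r = 0.0429 and -0.00952 over 9647 genes). With the replicate block, differences come from the libraries numbered 1 and 3 only, so wild type 4 and mutant 2 add nothing to them. The block gave 699 lower and 898 higher, and 18 lower and 7 higher in the lists. Among the members, gh1 was at 0.93 with equal totals and between 1.02 and 1.06 when 1 library was left out. cart4 was at 1.86 with a pseudocount of 5, at 4.82 in DESeq2 and between 2.68 and 3.85 without 1 library. For prl DESeq2 gave 4.95 and leaving out 1 library -0.27 to 3.22; for smtlb 5.36 and 0 to 2.28, where the fitted fold of a gene at 0 depends on the method and is no bound. For pomca leaving out 1 library gave -0.49 to 2.21 and for cga -1.14 to 0.78. Other alternatives moved a member by less than 1 SD of its own log2 values within a genotype, a wide limit for prl, pomca and cga. Within that limit pomca went from 1.29 to 0.15 in edgeR and 0.21 in DESeq2. prl went from 1.89 to 3.49 with the replicate block, and cga from -0.35 to -1.23 in DESeq2. Of the named list genes none changed direction after passing, and 13 lost their call in at least 1 alternative. A call was gained by 2 genes, avp in several alternatives and nkx2.4a with the replicate block. limma without a trend ended the calls of cish, cpe, dlx1a, fezf2, otpa, oxt, pitx1, pitx3, ptprna, qpctla and sst1.1, DESeq2 those of cish, dlx1a, nppc, oxt, pitx3, ptprna, qpctla and vgf, the replicate block those of dlx1a, oxt, pitx1, pitx3, ptprna and qpctla, equal totals those of ptprna and qpctla, and a pseudocount of 0.5 that of oxt. The cause of these shifts was not tested. Few counts stand behind cga, smtlb and the wild type levels of prl and cart4, and the spread between libraries of these genes is wider than counting error.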
